A study of Mus musculus with 72 samples.

Results

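The mRNAs of 10 genes at the succinyl-CoA and succinate steps of the tricarboxylic acid (TCA) cycle were followed across mouse gastrocnemius, lung, heart, liver, and white fat, out of 55401 genes in the deposited tables. The genes were named by their place in the pathway, with earlier results of these data known: *Cs*, *Ogdh*, *Dlst*, *Sucla2*, *Suclg1*, *Suclg2*, *Sdha*, *Sdhb*, *Sdhc*, and *Sdhd*. All 10 were found by symbol, and none of them had 0 reads in any library. The 72 poly(A) RNA-Seq libraries came from male mice. WT littermates were compared with mice lacking *Bmal1* in the whole body (KO), and with KO mice given at postnatal day 5 an AAV9 vector carrying HA-tagged *Bmal1* cDNA (KO+AAV). The vector's CK6 promoter is active in skeletal muscle and not rhythmic, so KO+AAV mice were meant to lack *Bmal1* in other tissues still. Gastrocnemius, a calf muscle made mostly of fast fibers, was collected 1 hour after lights on. The groups aged 10 weeks held 6 WT, 6 KO, and 7 KO+AAV libraries, and those aged 40 weeks held 5 each. Lung, heart, liver, and white fat gave 4 KO and 4 KO+AAV libraries each at 40 weeks, with no WT mice. A separate experiment compared gastrocnemius of 3 KO mice given AAV9-CK6-GFP at the same postnatal age with that of 3 KO control mice at 10 weeks.

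In the TCA cycle, citrate synthase joins acetyl-CoA to oxaloacetate. The 2-oxoglutarate dehydrogenase complex later turns 2-oxoglutarate into succinyl-CoA, and succinyl-CoA ligase turns that into succinate while making ATP or GTP. Succinate dehydrogenase, which is also complex II of the respiratory chain, oxidizes succinate to fumarate and passes the electrons to ubiquinone. *Cs* encodes citrate synthase, *Ogdh* the first enzyme of the 2-oxoglutarate dehydrogenase complex, and *Dlst* its succinyltransferase core. *Suclg1* encodes the alpha subunit common to both succinyl-CoA ligases. *Sucla2* encodes the beta subunit of the ATP-forming ligase, and *Suclg2* that of the GTP-forming ligase. *Sdha* encodes the flavoprotein of succinate dehydrogenase, *Sdhb* its iron-sulfur subunit, and *Sdhc* and *Sdhd* its membrane anchors.

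The genes lie on 9 chromosomes of GRCm38 (GENCODE vM21), and *Sucla2*, on which the muscle results turn, occupies chr14:73525319-73596142 on the plus strand. *Suclg1* is at chr6:73248382-73276911 and *Suclg2* at chr6:95473009-95718800, on opposite strands. No exon of the 10 genes overlaps an exon of another gene. *Suclg2* has a pseudogene, *Gm15163*, with 98.9% identity over 1302 bases, which collected 15 to 567 reads in a library and 4.56% as many reads as *Suclg2* over all libraries. *Suclg2* reads that the counting could not place between the copies are therefore uncertain.

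The 250 bases before the annotated starts were read from RefSeq (GRCm38.p6) in 14 windows of 9 of the genes. The E-box CACGTG, the sequence that BMAL1 and its partner CLOCK bind, was searched on both strands and occurred in 6.02% of all 32851 windows of this length. Among the 9 genes with windows, which leave out *Sdhc*, it was found for *Ogdh* alone, in 3 of its 6 windows, 2 of which overlap and share a match. The nuclear respiratory factor 1 motif occurred in 3.74% of all windows and in those of *Sdha* (3 matches), *Sdhd*, and *Sucla2*. In these genes the motifs CACGTT (3.85% of all windows), TNAAGGTCA of the estrogen-related receptors (1.14%), TAGGTCA of REV-ERB and ROR factors (2.23%), and the D-box TTANGTAA (2.06%) had no match. *Ogdh* has 6 of the 14 windows, so nothing particular to it is read from these matches, and the stretches are shown for the letters that were matched. Capitals mark the motif, each sequence is written 5′ to 3′ on the strand of its gene, and the *Sucla2* match reads as the motif on the other strand.
Ogdh, chr11:6292048-6292077, plus strand, match 110 bases before a start: gtcgcggcgtgtCACGTGgaccggtcgctc
Ogdh, chr11:6292405-6292434, plus strand, match 141 bases before a start: ggcaagaatcctCACGTGgataccatgtaa
Sdha, chr13:74350231-74350260, minus strand, match 10 bases before the start: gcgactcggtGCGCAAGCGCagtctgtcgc
Sdha, chr13:74350276-74350305, minus strand, match 55 bases before the start: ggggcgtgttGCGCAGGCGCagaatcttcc
Sdha, chr13:74350319-74350348, minus strand, match 98 bases before the start: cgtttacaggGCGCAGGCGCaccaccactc
Sdhd, chr9:50603909-50603938, minus strand, match 79 bases before the start: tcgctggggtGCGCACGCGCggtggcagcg
Sucla2, chr14:73552759-73552788, plus strand, match 17 bases before the start: ctgcgtctctGCGCCTGCGCggtgcccagg
The RefSeq start of *Sucla2* lies inside the longer gene that GENCODE annotates. These matches describe letters and not sites of binding, and all but the *Sdhd* stretch and the last of *Sdha* lie over an exon of GENCODE.

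Values are normalized counts, that is, reads per gene divided by a size factor of the library. Reads on genes ranged from 6754312 to 41733282 in the 40 gastrocnemius libraries (median 11629939) and from 36903079 to 50755829 in the other tissues. The lowest count of any of the 10 genes was 398 reads (*Suclg2* in a KO control library of the GFP experiment). Differences were tested with limma on log2(normalized count + 1), with sequencing site as a covariate in gastrocnemius, and a gene was called where its Benjamini-Hochberg adjusted *P* over all genes tested was under 0.05. The study's cutoff for differentially expressed genes (DEGs), *P* under 0.01, is given beside it, here applied to limma's *P* and not to that of the study's DESeq2 test.

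*Arntl*, the gene symbol of *Bmal1*, was examined first as a check of the labels. At 10 weeks its normalized count was 402 to 634 in WT muscle (median 527), 196 to 296 in KO muscle (median 236), and 169 to 281 in KO+AAV muscle (median 222). No KO or KO+AAV library reached the lowest WT library, and KO differed from WT by -1.14 on the log2 scale (adjusted *P* = 6.59e-05). At 40 weeks WT libraries held 479.9 to 608 (median 573) and KO+AAV libraries 268 to 359 (median 313). The library labelled KO replicate 2 held 1039, above every WT library, while the other 4 KO libraries held 308 to 395. Because of it KO and WT overlapped at 40 weeks (log2 difference -0.38, adjusted *P* = 0.182). Reads were counted over the whole gene, so they do not measure the deleted part or the vector's cDNA alone, and *Arntl* was not called between KO+AAV and KO muscle (log2 difference -0.06, adjusted *P* = 0.962, at 10 weeks and -0.48, adjusted *P* = 0.412, at 40 weeks). *Myh4*, the fast IIB myosin, was the most abundant skeletal muscle marker in every gastrocnemius group, and the markers' summed means were 103822 to 148118 counts-per-million (CPM). Hepatocyte markers were near 0 in gastrocnemius, with a highest group mean of 9.94 CPM summed over the list, led by *Alb*.

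Levels of different genes were compared as RPKM (reads-per-kilobase-per-million), the reads of a gene scaled by its exon length and by the reads on genes in the library. In WT muscle at 10 weeks the order of these levels was *Sdha* (199.8 ± 24.3 RPKM, SD, n = 6), *Sdhd* (158 ± 19.9), *Ogdh* (143 ± 19.9), *Cs* (132 ± 17.4), *Sdhb* (126 ± 29.4), *Sucla2* (115 ± 12.3), *Sdhc* (68.2 ± 8.38), *Suclg1* (49.1 ± 5.22), *Dlst* (28.3 ± 5.13), and *Suclg2* (12.3 ± 1.65). From *Sdhd* to *Sucla2*, neighbors in this order differed by less than 1 SD, while *Sdha* stood above *Sdhd*, and *Sdhc*, *Suclg1*, *Dlst*, and *Suclg2* each lay below the gene before them by more than their SD. In KO muscle at 10 weeks the level of *Sucla2* was 207 ± 12.4 RPKM (n = 6), next to *Sdhd* (204 ± 21.5) and second to *Sdha* (247 ± 24.6). The order rests on the exon length used, since the union of all exons (3988 bases for *Sucla2*, 9559 for *Dlst*) is longer than the principal transcript (2229 and 2764 bases).

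All 10 genes were higher in KO than in WT muscle at both ages (51.1% and 48.9% of all genes were, at 10 and 40 weeks), though not all differences passed the test. At 10 weeks 3 of the 10 rose (*Sucla2*, *Ogdh*, and *Dlst*), where 3.74% of all 16199 genes tested were called higher. At the study's cutoff 6 of 10 were DEGs by limma (5.15% of all genes, in this direction), and 9 of 10 were higher at an unadjusted *P* under 0.05 (9.61% of all genes). The median log2 difference was 0.33 over the 10 genes and 0.01 over all genes. At 40 weeks 9 of 10 rose, all but *Suclg1*, against 11.5% of all genes called higher. Of these, 8 were DEGs (10.9% of all genes), and the median log2 difference was 0.42 against -0.01 over all genes. KO and WT libraries did not overlap at 10 weeks for 1 gene, *Sucla2* (2.61% of all genes were higher without overlap), and at 40 weeks for 5, *Cs*, *Ogdh*, *Dlst*, *Sucla2*, and *Sdha* (6.67%). In such bulk samples, fewer cells of a type and less RNA per cell cannot be told apart. Without the library labelled KO replicate 2, 7 of 10 were called at 40 weeks, and the calls of *Suclg2* (adjusted *P* = 0.0505) and *Sdhb* (adjusted *P* = 0.0757) were lost. With a block on replicate numbers, which the labels do not say pair the libraries, fewer genes were called at 40 weeks, as given in the last section.

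**Figure D1:**
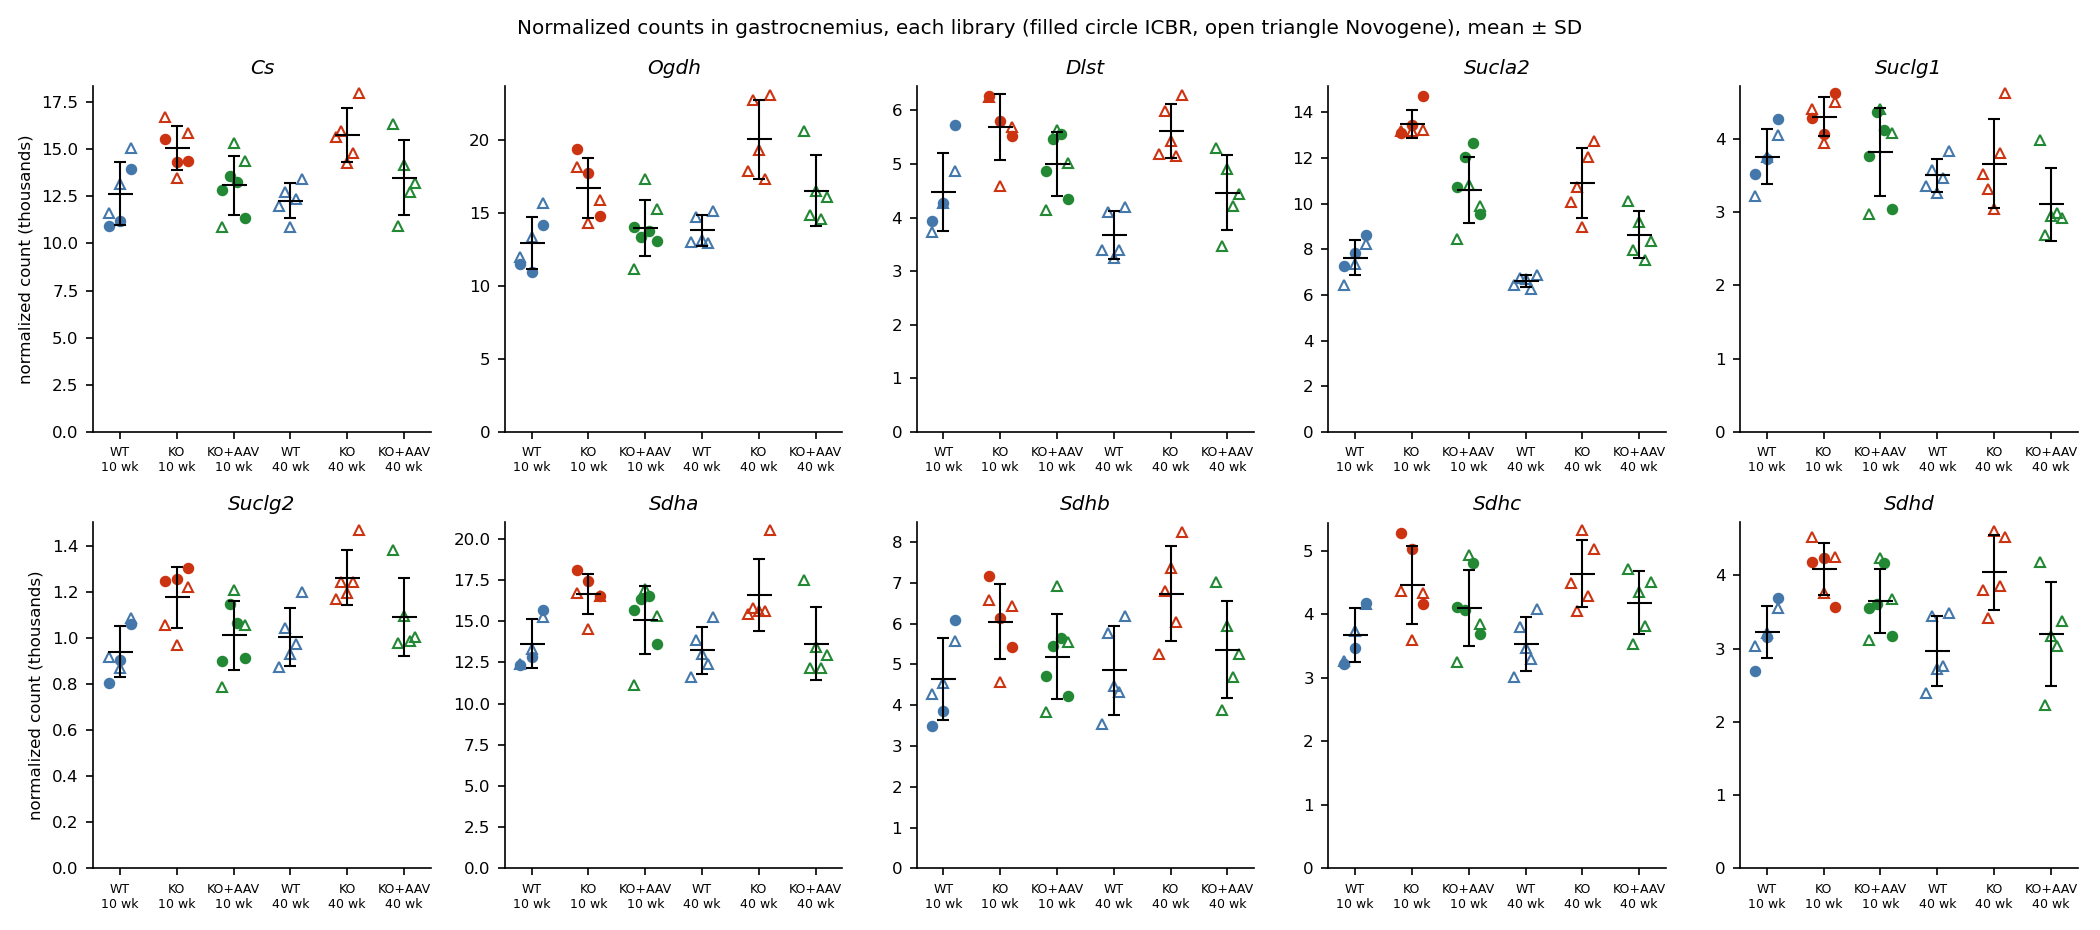
Normalized counts (linear axes from 0, labelled with their scale) of the 10 genes in each gastrocnemius library by group and age; filled circles are libraries sequenced at ICBR, open triangles those at Novogene, and bars the group mean ± SD. The KO libraries of *Sucla2* at 10 weeks sit between 13084 and 14733, all above the WT libraries, which reach 8621.

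*Sucla2*, the beta subunit of the ATP-forming ligase, differed most. At 10 weeks its normalized count was 6432 to 8621 in WT (median 7604) and 13084 to 14733 in KO libraries (median 13224). The lowest KO library was far above the highest WT library. *Sucla2* rose 1.77-fold (log2 difference 0.83, SE 0.09, 95% CI 0.64 to 1.01, adjusted *P* = 7.90e-08), and its *P* value was number 37 of all genes in rank. The log2 difference was 0.80 within the ICBR libraries and 0.86 within the Novogene libraries. At 40 weeks the WT libraries held 6442, 6728, 6715, 6278, and 6892, and the KO libraries 10083, 10715, 8955, 12039, and 12747. Again the groups stood apart, with a wider spread in KO than in WT. The increase was 1.64-fold (log2 difference 0.71, SE 0.10, 95% CI 0.51 to 0.91, adjusted *P* = 2.71e-06).

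The partner subunits of the ligase differed less between KO and WT muscle than *Sucla2* did. *Suclg1*, the alpha subunit, had 3216 to 4269 normalized counts in WT (median 3739.6) and 3934 to 4616 in KO muscle (median 4346) at 10 weeks, and the groups overlapped. Its log2 difference was 0.20 at 10 weeks (95% CI -0.02 to 0.41, adjusted *P* = 0.307) and 0.05 at 40 weeks (95% CI -0.18 to 0.29, adjusted *P* = 0.796). With library quality weights *Suclg1* was called at 10 weeks, where 10.5% of all genes were called higher. *Suclg2*, the beta subunit of the GTP-forming ligase, had 804 to 1087 in WT (median 911) and 969 to 1306 in KO muscle (median 1235) at 10 weeks, also with overlap. Its log2 difference was 0.32 at 10 weeks (SE 0.11, adjusted *P* = 0.0562; 0.47 at ICBR and 0.18 at Novogene) and 0.33 at 40 weeks (SE 0.12, adjusted *P* = 0.0347). At 10 weeks it was called with library quality weights (log2 difference 0.42, adjusted *P* = 0.000445), with the 2 groups fitted alone (0.0317), with DESeq2 (0.0347), and with a filter at a mean count of 50 (0.0466). At 40 weeks *Suclg2* libraries ran from 873 to 1200.4 in WT and from 1169 to 1469 in KO muscle. Without WT replicate 1, 3, or 4 or KO replicate 2 or 5 its adjusted *P* was 0.101, 0.0785, 0.0646, 0.0505, and 0.0932.

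The ratio of one subunit to another within a library does not depend on how libraries are scaled. The ratios were compared with two-sided exact permutation tests that exchanged labels within sequencing sites, and 21 tests were adjusted together; these ratios were chosen after the values of the single genes were seen. Per length, *Sucla2*/*Suclg1* was 2.27 to 2.43 in WT and 3.41 to 3.88 in KO muscle at 10 weeks. The 6 WT libraries lay within a narrow band, and no KO library came near it. The log2 ratio differed by 0.63 (SE 0.03; exact *P* = 0.00500, the smallest that these 400 arrangements allow; adjusted *P* = 0.0185). Site by site, the difference was 0.62 (ICBR) and 0.63 (Novogene). At 40 weeks the ratio was 2.08 to 2.38 in WT and 3.20 to 3.75 in KO muscle, a log2 difference of 0.66 (SE 0.06; exact *P* = 0.00794, the smallest that 252 arrangements allow; adjusted *P* = 0.0185). *Sucla2*/*Suclg2* was 8.12 to 10.5 in WT and 12.2 to 15.8 in KO muscle at 10 weeks (log2 difference 0.50; 0.33 at ICBR and 0.68 at Novogene) and 6.65 to 8.55 against 8.68 to 11.2 at 40 weeks (log2 difference 0.38), each without overlap (exact test, adjusted *P* = 0.0185 at both ages). *Suclg2*/*Suclg1* differed by 0.12 at 10 weeks, with overlap (exact *P* = 0.145), and by 0.28 at 40 weeks, without (adjusted *P* = 0.0185).

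**Figure D2:**
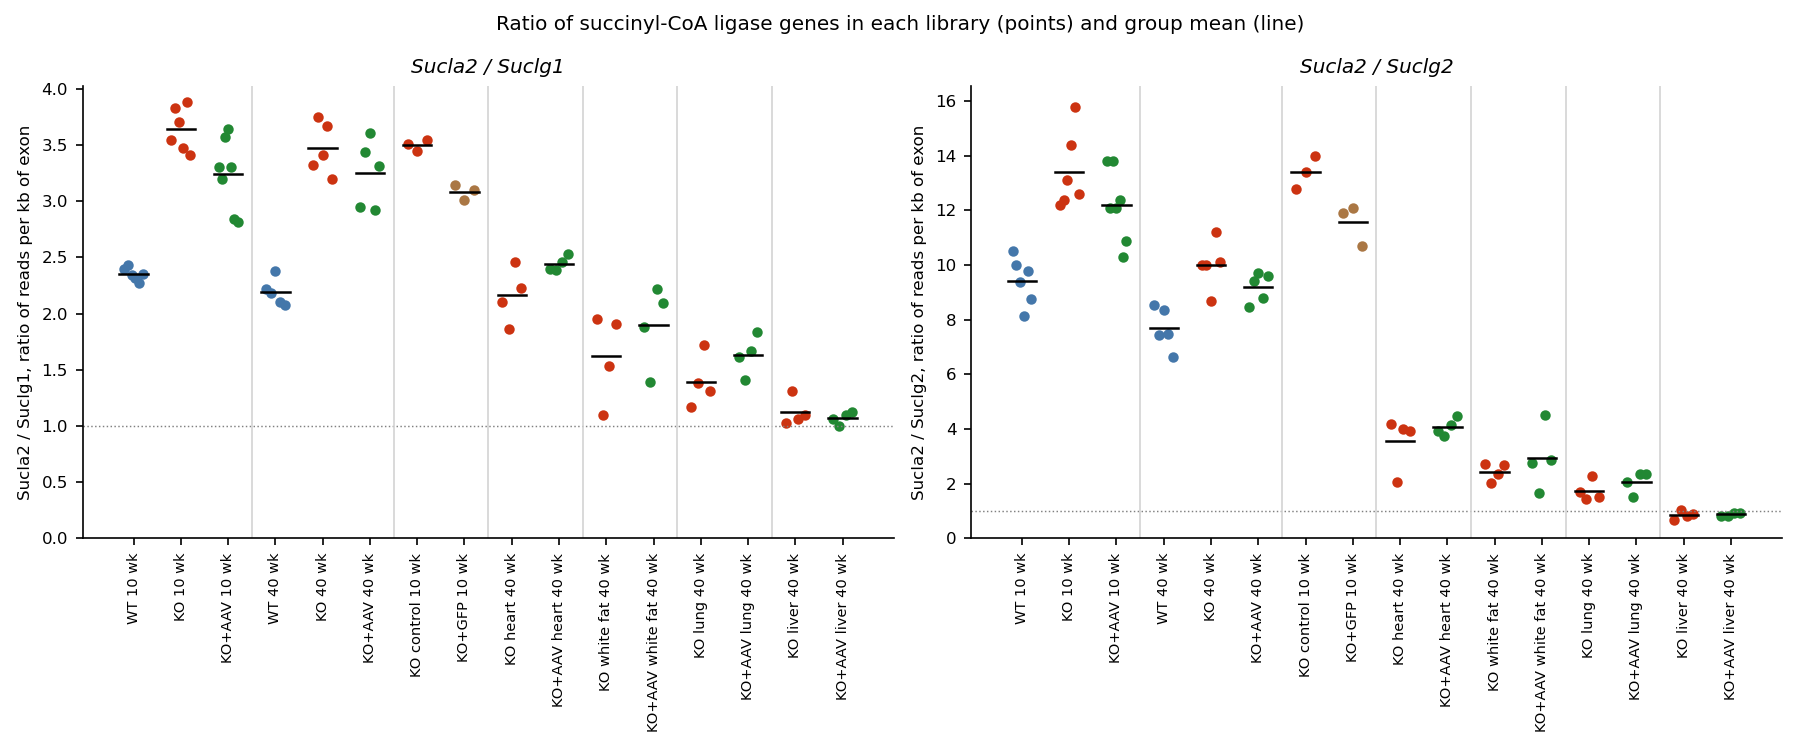
Ratios of *Sucla2* to *Suclg1* and of *Sucla2* to *Suclg2* (reads per kilobase of exon, linear axes) in each library of every group, with a line at the group mean. The *Sucla2*/*Suclg1* ratio was below 2.5 in all WT muscle libraries and above 3 in all KO muscle libraries of both ages, and the liver libraries have the lowest *Sucla2*/*Suclg2* ratios.

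*Ogdh* and *Dlst*, the E1 and E2 enzymes that make succinyl-CoA, rose at both ages, though at 10 weeks their calls were lost with no filter on low values (adjusted *P* = 0.0651 and 0.0700) and in either site's libraries alone (0.0821 to 0.675 for *Ogdh*, 0.262 and 0.379 for *Dlst*). The call of *Ogdh* at 10 weeks was also lost with a block on replicate numbers. At 10 weeks *Ogdh* was 10966 to 15677 in WT (median 12698) and 14319 to 19437 in KO muscle (median 16829), with overlap. Its log2 difference was 0.37 (SE 0.11, adjusted *P* = 0.0302; 0.50 at ICBR and 0.24 at Novogene). At 40 weeks *Ogdh* was 13041, 14751, 13169, 12963, and 15181 in WT and 17875, 22773, 19359, 17346, and 23126 in KO libraries. Every KO library was above every WT library, and the increase was 1.45-fold (log2 difference 0.53, SE 0.12, adjusted *P* = 0.00146). *Dlst* was 3737 to 5733 in WT (median 4270.4) and 4597 to 6271 in KO muscle (median 5743) at 10 weeks, with overlap, a log2 difference of 0.35 (SE 0.11, adjusted *P* = 0.0353; 0.35 at ICBR and 0.36 at Novogene). At 40 weeks *Dlst* was 3398, 4109, 3239, 3403, and 4206 in WT and 5192, 5992, 5438, 5156, and 6289.9 in KO libraries. The groups stood clear of each other, and the increase was 1.53-fold (log2 difference 0.62, SE 0.12, adjusted *P* = 0.000250). *Cs*, the entry enzyme of the cycle, had a log2 difference of 0.26 at 10 weeks, which did not pass the test (adjusted *P* = 0.107; 0.30 within ICBR, 0.21 within Novogene). With library quality weights *Cs* was called at 10 weeks, where 10.5% of all genes were called higher. At 40 weeks *Cs* was 10858 to 13405 in WT and 14280.0 to 18002 in KO libraries, without overlap, and rose 1.28-fold (log2 difference 0.36, SE 0.11, adjusted *P* = 0.0139).

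None of the 4 succinate dehydrogenase genes was called by limma at 10 weeks, and all 4 rose at 40 weeks. At 10 weeks the log2 differences between KO and WT muscle were 0.29 for *Sdha* (adjusted *P* = 0.0872; 0.36 at ICBR and 0.22 at Novogene), 0.39 for *Sdhb* (adjusted *P* = 0.147; 0.51 and 0.28), 0.28 for *Sdhc* (adjusted *P* = 0.111; 0.41 and 0.14), and 0.34 for *Sdhd* (adjusted *P* = 0.0663; 0.34 and 0.35). *Sdha* and *Sdhd* had a *P* under 0.01. With library quality weights all 4 were called at 10 weeks (adjusted *P* = 0.00137 for *Sdha* and 0.000702 for *Sdhd*), and *Sdhd* was also called with the 2 groups fitted alone (0.0133) and with DESeq2 (0.0457), and *Sdha* with the 2 groups alone (0.0355). Calls among all genes also rose, with 10.5% called higher with the weights, 6.49% with the 2 groups alone, and 4.84% with DESeq2, against 3.74%. At 40 weeks *Sdhd*, a membrane anchor, was 2399, 3444, 2724, 2766, and 3481 in WT and 3802, 3421, 4604, 3855, and 4530.2 in KO libraries. All KO libraries but the second were above WT, and *Sdhd* rose 1.37-fold (log2 difference 0.45, SE 0.13, adjusted *P* = 0.00965). The other anchor, *Sdhc*, rose 1.31-fold (log2 difference 0.40, SE 0.12, adjusted *P* = 0.0126). *Sdha*, which carries the flavin, was 11605 to 15267 in WT and 15414 to 20522 in KO libraries, and rose 1.25-fold (log2 difference 0.32, SE 0.11, adjusted *P* = 0.0380). *Sdhb*, the iron-sulfur subunit, was 3551 to 6179 in WT and 5249 to 8243 in KO libraries and overlapped, with a 1.40-fold increase (log2 difference 0.48, SE 0.18, adjusted *P* = 0.0452). The calls of *Sdha* and *Sdhb* were near the threshold, and each was lost when any 1 of several libraries was left out. That of *Sdha* was lost without WT replicate 1, 3, or 4 (adjusted *P* = 0.106, 0.0671, and 0.0818) or KO replicate 5 (0.124). That of *Sdhb* was lost without WT replicate 1, 3, or 4 (adjusted *P* = 0.149, 0.0881, and 0.0944) or KO replicate 2, 3, or 5 (0.0757, 0.0891, and 0.112).

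**Figure D3:**
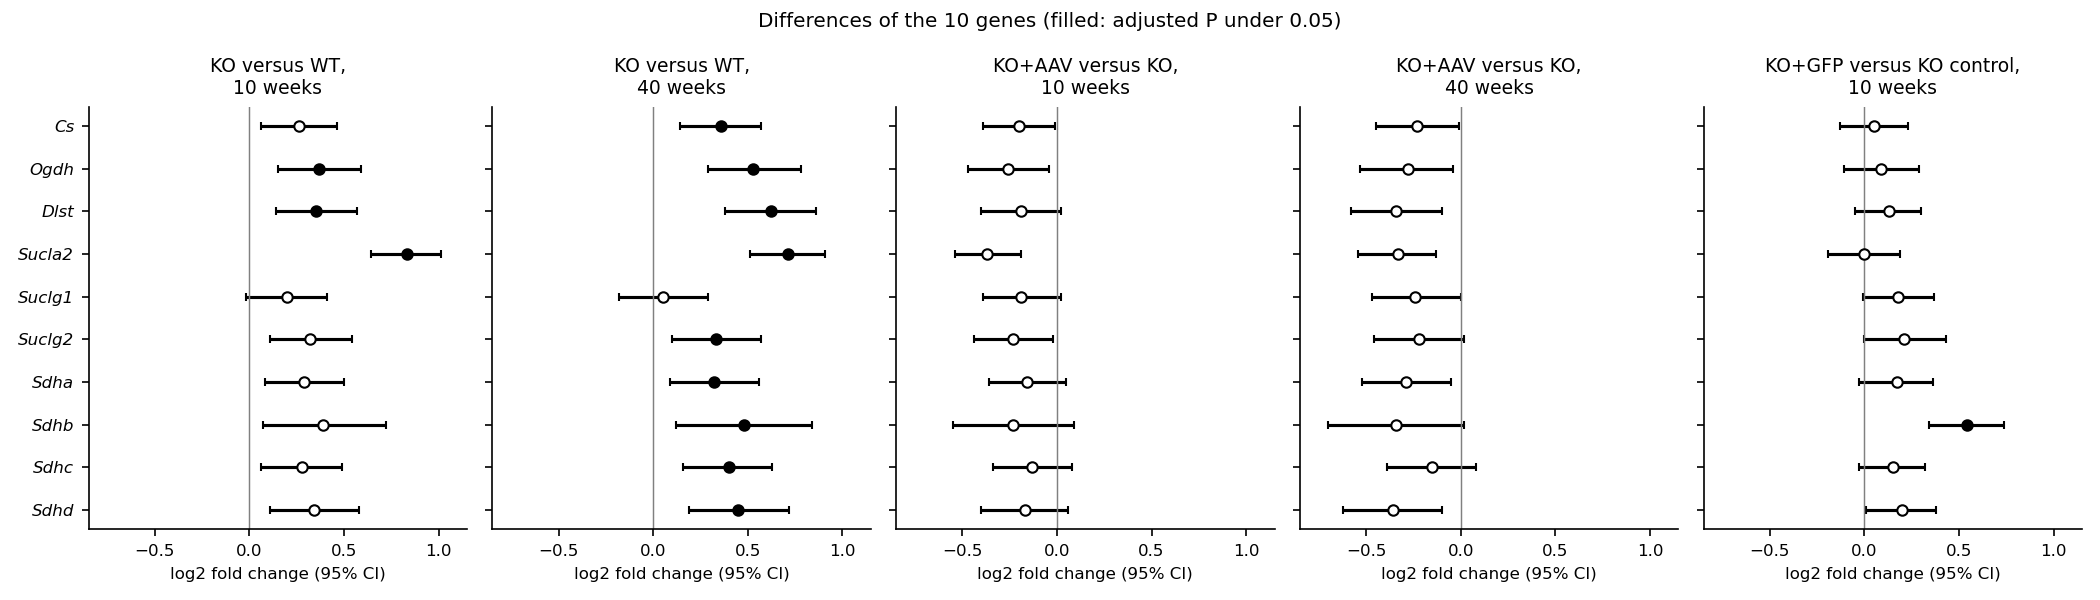
Log2 fold changes with 95% CIs of the 10 genes (rows) in 5 comparisons (panels), from limma; filled points have an adjusted *P* under 0.05. All points lie above 0 for KO versus WT muscle at both ages and below 0 for KO+AAV versus KO muscle, where none is filled.

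The comparison of KO+AAV with KO muscle asked how the genes stood once *Bmal1* was expressed in muscle. All 10 genes were lower in KO+AAV muscle at both ages (51.9% and 53.0% of all genes were higher at 10 and 40 weeks), but limma called none of them (0.0679% of all genes were called lower at 10 weeks and 0.0370% at 40 weeks). At an unadjusted *P* under 0.05 there were 4 of 10 at 10 weeks (3.71% of all genes, lower) and 7 at 40 weeks (4.32%). Of the 10, edgeR called 0 at both ages, and DESeq2 called 1 at 10 weeks and 0 at 40 weeks. The shares of all genes that edgeR and DESeq2 called are not given here, so their counts are not read further. At the study's cutoff 1 gene was a DEG by limma at 10 weeks (1.11% of all genes, lower) and 3 at 40 weeks (1.23%). The median log2 difference was -0.20 and -0.28, and over all genes 0.01 and 0.02. KO+AAV versus KO and KO versus WT use the same KO libraries, so their opposite signs are not independent of each other. *Sucla2* again differed most at 10 weeks: KO+AAV libraries held 8452 to 12678 (median 10726), all below the lowest KO library (13084). Its log2 difference was -0.37 (SE 0.09, 95% CI -0.54 to -0.19, unadjusted *P* = 0.000179, adjusted *P* = 0.0643; -0.30 at ICBR and -0.45 at Novogene), and 0.284% of all genes were lower without overlap. At 40 weeks KO+AAV libraries held 10126, 7984, 9188, 7514, and 8349 and overlapped KO libraries, with a log2 difference of -0.33 (SE 0.10, adjusted *P* = 0.180). *Dlst* (log2 difference -0.34, SE 0.12, adjusted *P* = 0.283) and *Sdhd* (-0.36, SE 0.13, adjusted *P* = 0.301) were the other DEGs at 40 weeks, and the smallest difference was that of *Sdhc* at both ages (-0.13 and -0.15). *Sucla2*/*Suclg1* had a log2 difference of -0.17 between KO+AAV and KO libraries at 10 weeks, with overlap (exact permutation *P* = 0.0171, adjusted *P* = 0.0327; -0.11 at ICBR and -0.27 at Novogene), and its log2 ratio differed by -0.10 at 40 weeks (exact *P* = 0.230). *Sucla2*/*Suclg2* differed by -0.14 at 10 weeks (exact *P* = 0.174; 0.04 at ICBR and -0.34 at Novogene) and by -0.11 at 40 weeks (exact *P* = 0.135). The GFP vector, set against its own controls, gave a log2 difference in *Sucla2*/*Suclg1* of -0.18.

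Against WT muscle, KO+AAV muscle had 1 of the 10 genes called higher at each age, *Sucla2* (2.21% of all genes were called higher at 10 weeks and 6.41% at 40 weeks). At an unadjusted *P* under 0.05 there were 1 of 10 at 10 weeks (9.45% of all genes, higher) and 4 at 40 weeks (12.9%), and 10 and 9 of the genes had a mean difference above 0. The median log2 difference was 0.14 at 10 weeks and 0.13 at 40 weeks, and over all genes 0.02 and 0.00. *Sucla2* had a log2 difference of 0.46 at 10 weeks (1.37-fold, SE 0.09, adjusted *P* = 0.000869; 0.50 at ICBR and 0.41 at Novogene), where 1 KO+AAV library, replicate 5 (8452), lay below the highest WT library. In either site's libraries alone this call was lost (adjusted *P* up to 0.250). At 40 weeks the log2 difference of *Sucla2* was 0.38 (1.30-fold, SE 0.10, adjusted *P* = 0.00961), and the groups did not overlap (6.13% of all genes). The other 9 genes differed from WT by 0.01 (*Suclg1*) to 0.18 (*Sdhd*) at 10 weeks and by -0.18 (*Suclg1*) to 0.28 (*Dlst*, adjusted *P* = 0.129) at 40 weeks. *Sucla2*/*Suclg1* was 2.81 to 3.64 in KO+AAV muscle at 10 weeks and 2.92 to 3.61 at 40 weeks, without overlap with WT at either age (log2 differences 0.45 and 0.56, exact permutation tests, adjusted *P* = 0.0150 and 0.0185). *Sucla2*/*Suclg2* differed from WT by 0.37 and 0.26, with overlap at both ages (exact permutation tests, adjusted *P* = 0.0150 and 0.0327). *Suclg2*/*Suclg1* differed by 0.09 at 10 weeks, with overlap (exact *P* = 0.211), and by 0.30 at 40 weeks, without (exact test, adjusted *P* = 0.0185).

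Between 10 and 40 weeks none of the 10 genes was called in WT, KO, or KO+AAV muscle, where 0.148%, 8.31%, and 8.53% of all genes were called by limma in either direction, and edgeR and DESeq2 called 0 as well. At an unadjusted *P* under 0.05 there were 0, 1, and 2 genes (24.3% of all genes in KO and 23.9% in KO+AAV muscle). The share of all genes in WT muscle at this cutoff is not given here, so its 0 is not read further. All 40-week libraries were sequenced at Novogene, so the site term rests on the 10-week libraries. *Sucla2* in KO muscle had the largest shift in that group (log2 difference -0.25, SE 0.10, adjusted *P* = 0.117), and all KO libraries at 40 weeks, 8955 to 12747, were below the lowest at 10 weeks (2.52% of all genes were lower without overlap). In reads-per-million *Sucla2* was called in KO muscle (log2 difference -0.30, limma adjusted *P* = 0.0489), and *Cs*, *Dlst*, and *Sdha* changed sign. In KO+AAV muscle the 2 genes with an unadjusted *P* under 0.05 were *Sucla2* (-0.22) and *Suclg1* (-0.28), and in WT muscle the largest shift was that of *Dlst* (-0.24). A change of the KO versus WT difference between the ages was called for none of the 10 genes (0.370% of all genes were called; 0 of 10 had an unadjusted *P* under 0.05, and edgeR and DESeq2 called 0). For KO+AAV versus KO no such change was called either (0.00617% of all genes; 0 of the 10 at an unadjusted *P* under 0.05). For KO versus WT the change in the log2 difference was 0.26 for *Dlst* (95% CI -0.06 to 0.59), -0.12 for *Sucla2* (95% CI -0.39 to 0.16), and -0.15 for *Suclg1* (95% CI -0.47 to 0.17).

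The GFP vector served as a control for AAV transduction. *Sdhb* was 3139, 3148, and 2915 in the KO+GFP libraries and 2344, 2133, and 1875 in the KO control libraries. The groups stood apart, and *Sdhb* rose 1.45-fold (log2 difference 0.54, SE 0.09, 95% CI 0.34 to 0.74, adjusted *P* = 0.00882), and 1 of the 10 was thus called (1.83% of all genes were called higher). Without the third KO+GFP library its log2 difference was 0.58 with an adjusted *P* of 0.0539. *Sucla2*, by contrast, was 5576, 5306, and 5165 with GFP and 5248, 5851, and 4991 without, a log2 difference of -0.00 (95% CI -0.19 to 0.19) that became 0.08 in reads-per-million. The other 8 genes differed by 0.05 (*Cs*) to 0.21 (*Suclg2*), and *Suclg2*, *Sdha*, and *Sdhd* did not overlap between groups either (11.0% of all genes were higher without overlap). *Sucla2*/*Suclg1* was 3.01 to 3.14 with GFP and 3.45 to 3.54 in the controls (log2 difference -0.18, exact permutation *P* = 0.10, the smallest that 3 against 3 libraries allow). *Sucla2*/*Suclg2* differed by -0.21, also without overlap and at the same *P*. This experiment was normalized apart from the others, and its values are not compared with theirs as counts.

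Slow fibers hold more mitochondria than fast fibers, and the share of slow fiber RNA varied widely between gastrocnemius libraries. The summed level of 8 slow fiber genes ran from 171 to 1292 CPM in WT and from 139.9 to 4342 CPM in KO muscle at 10 weeks, and from 113 to 1843 and 687 to 11218 CPM at 40 weeks, with the highest value in KO replicate 3. In KO+AAV muscle it ran from 259 to 2793 CPM at 10 weeks and from 323 to 2353 CPM at 40 weeks. The median log2 difference of the 8 genes between KO and WT was 1.27 at 10 weeks, with 0 called (limma; 0 with an unadjusted *P* under 0.05), and 2.28 at 40 weeks, with 1 called, *Myoz2* (2.01, adjusted *P* = 0.00944). Between KO+AAV and KO it was -0.25 and -1.74, with 0 called and 0 at an unadjusted *P* under 0.05. In the GFP experiment 6 of the 8 rose (median 2.78), among them *Myoz2* (1.46, adjusted *P* = 0.000252) and *Myl3* (1.99, adjusted *P* = 0.00133), and the summed levels were 2211, 1736, and 1891 CPM with GFP and 1081, 202, and 264 CPM in the controls. The part of slow fibers in the differences was not tested. As a description over the 34 libraries, after group means were removed, the correlation with the slow fiber sum was 0.05 for *Sucla2*, 0.16 for *Suclg1*, 0.46 for *Suclg2*, 0.50 for *Cs*, and 0.51 to 0.71 for the other 6, of which *Ogdh* (0.71) and *Sdhb* (0.70) were highest. Without KO replicate 3, the library with the highest sum, 8 of 10 genes were called between KO and WT at 40 weeks, and *Sucla2* had a log2 difference of 0.78.

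**Figure D4:**
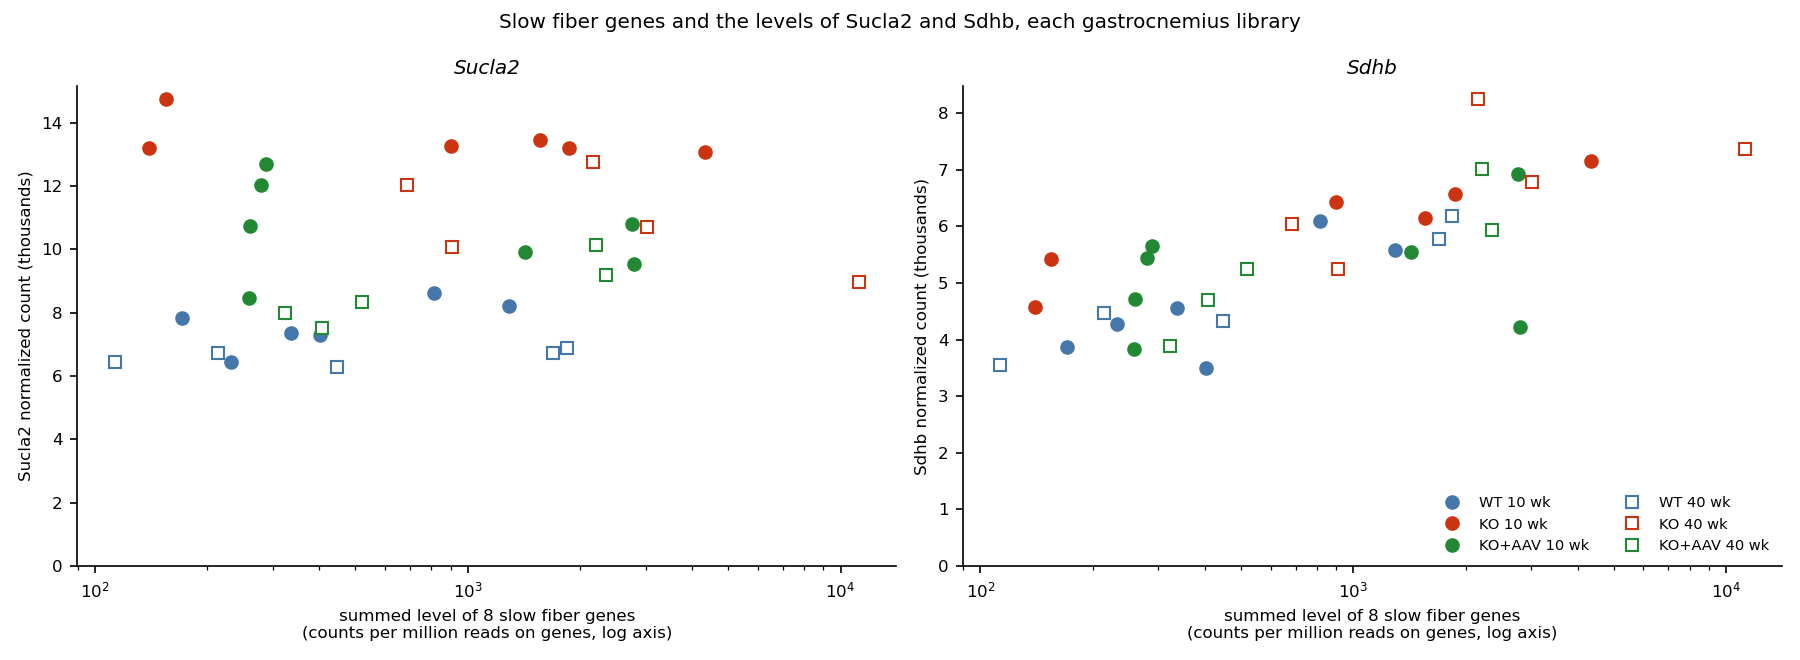
Normalized counts of *Sucla2* and *Sdhb* (linear axes) against the summed CPM of 8 slow fiber genes (log axis) in the 34 gastrocnemius libraries, by group. The KO libraries of *Sucla2* at 10 weeks lie above the WT libraries from 139.9 to 4342 CPM, while *Sdhb* is higher in libraries with a higher sum.

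Markers of other cell types also moved. In the GFP experiment 7 of 10 macrophage markers rose (median log2 difference 1.51), among them *C1qa* (2.47, adjusted *P* = 0.000370), a complement subunit, and *Cd163* (1.67, adjusted *P* = 0.00323). The list's summed level was 89.0, 114, and 139 CPM with GFP and 36.0, 37.8, and 53.1 CPM in the controls, and *Lyz2* was its most abundant gene. In the same experiment 3 of 5 Schwann cell markers fell (median -1.04), including *Mbp* (-1.46, adjusted *P* = 0.000299), myelin basic protein. The fast myosins *Myh2* (1.63, adjusted *P* = 0.000410) and *Myh1* (1.29, adjusted *P* = 0.0294), rose with GFP too, while the median of the 8 fast fiber genes was -0.22. Between KO+AAV and KO muscle at 10 weeks the macrophage markers had a median of 1.31, with 0 called by limma and 9 of 10 at an unadjusted *P* under 0.05, and the summed level ran from 53.9 to 659.5 CPM (median 91.1) against 26.0 to 86.0 CPM (median 53.7). Of 6 endothelial markers, 1 rose between KO and WT at 10 weeks, *Cldn5* (0.85, adjusted *P* = 0.0117), and 2 at 40 weeks, *Pecam1* (0.40, adjusted *P* = 0.0262) and *Cldn5* (0.67, adjusted *P* = 0.0422), with a median of 0.33 at both ages. Of the 3 cardiac muscle markers tested, 1 rose in KO muscle at both ages, *Actc1*, the cardiac alpha-actin (1.46, adjusted *P* = 0.0414, at 10 weeks and 2.54, adjusted *P* = 0.000321, at 40 weeks). The 8 fast fiber genes had a median of 0.08 at 10 weeks, with 0 called by limma and 0 at an unadjusted *P* under 0.05, and of -0.26 at 40 weeks, where 6 lay below 0 and 1 fell, the fast troponin gene *Tnni2* (-0.46, adjusted *P* = 0.0453). Of 6 skeletal muscle markers 1 fell at 40 weeks, *Pvalb*, the calcium buffer parvalbumin (-0.95, adjusted *P* = 0.0191). Of 5 brown adipocyte markers tested, *Cidea*, a lipid droplet protein, rose at 40 weeks (2.45, adjusted *P* = 0.00116) and *Ppargc1a* fell (-0.67, adjusted *P* = 0.00940). At 40 weeks 2 of 8 adipocyte markers fell in KO muscle, the hormone genes *Lep* (2.95 ± 3.64 normalized counts against 228 ± 174 in WT, SD, n = 5 each; adjusted *P* = 2.30e-06) and *Adipoq* (40.3 ± 23.9 against 213 ± 162; adjusted *P* = 0.0273). Between KO+AAV and WT muscle at 10 weeks, 1 macrophage (list median 1.05), 1 endothelial (0.22), 1 skeletal muscle (0.07), and 1 cardiac marker (-0.24) were called higher by limma. At 40 weeks 1 brown adipocyte and 1 cardiac marker were called higher there, and 1 adipocyte marker lower. The 1 hepatocyte marker tested, *Alb*, fell between KO and WT at 40 weeks (-3.61). WT replicates 2 and 4 held 17.3 and 20.8 CPM of it, the other WT libraries at most 0.638 CPM, and KO libraries 0 to 0.322 CPM. That difference therefore lies mostly in these WT libraries. The part of all these cell types in the values of the 10 genes was not tested.

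Across the 34 gastrocnemius libraries, after the site effect was removed, the genes most like the mean of the 10 were *Atp5a1* and *Atp5b* (Pearson's r 0.98 each), *Ndufs1* and *Uqcrfs1* (0.97 each), and *Ndufa9* (0.96), which encode subunits of ATP synthase, complex I, and complex III. Within the 10, *Sdha* followed the other 9 most closely (0.96) and *Suclg1* least (0.62), next to *Sucla2* (0.76). Once the group means were removed, *Sdha* stayed at 0.96, *Sucla2* was lowest (0.70), and *Suclg1* was at 0.83. The points share libraries and normalization, and the values are a description. *Sucla2* and *Suclg1* had a correlation of 0.59 over all 34 libraries and 0.85 once the group means were removed.

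Genes around the same steps were read from lists chosen by function. Of 4 assembly factors of succinate dehydrogenase, 0 were called at 10 weeks between KO and WT. At 40 weeks *Sdhaf2* (log2 difference 0.42, adjusted *P* = 0.0126), which helps to attach the flavin, and *Sdhaf4* (0.52, adjusted *P* = 0.0391) rose, and *Sdhaf3* fell (-0.50, adjusted *P* = 0.0211). Of 8 other TCA cycle genes, 0 were called at 10 weeks (median 0.21) and 2 rose at 40 weeks (median 0.27): *Mdh2*, malate dehydrogenase (0.41, adjusted *P* = 0.00475), and *Dld*, the E3 enzyme of the 2-oxoglutarate and pyruvate complexes (0.35, adjusted *P* = 0.0218). Of 11 genes of pyruvate dehydrogenase and its kinases and phosphatases, 1 rose at 10 weeks and at 40 weeks 5 rose and 1 fell. *Pdp2*, a phosphatase that activates the complex, rose by 0.70 (adjusted *P* = 0.0212) and 1.26 (adjusted *P* = 5.79e-05), while the phosphatase gene *Pdp1* fell by 1.04 at 40 weeks (adjusted *P* = 0.000641).

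Of 10 matched genes (11 listed) for other makers and users of succinyl-CoA, 0 were called at 10 weeks and 2 rose at 40 weeks, *Alas1*, the first enzyme of heme synthesis (0.49, adjusted *P* = 0.00806), and *Mcee*, of the propionate path (0.49, adjusted *P* = 0.0370). None of the 8 tested makers, carriers, and sensors of succinate was called at either age (medians 0.08 and 0.17). Among 15 genes of anaplerosis and its cytosolic partners, 2 rose and 2 fell at 10 weeks, and 4 rose and 3 fell at 40 weeks. *Got1*, the cytosolic aspartate aminotransferase, rose at both ages (0.81, adjusted *P* = 0.0489, and 1.53, adjusted *P* = 0.000184), and *Got2*, the mitochondrial one, rose at 40 weeks (0.92, adjusted *P* = 0.000177). *Pcx*, pyruvate carboxylase, fell at both ages (-1.02, adjusted *P* = 4.35e-06, and -0.65, adjusted *P* = 0.00206). Of 11 mitochondrial regulators, 0 were called at 10 weeks, and at 40 weeks *Tfam* (0.30, adjusted *P* = 0.0117) and *Hif1a* (0.43, adjusted *P* = 0.0203) rose while *Ppargc1a* fell (-0.67, adjusted *P* = 0.00940). In the lists with 0 called by limma at 10 weeks, 2 to 4 genes had an unadjusted *P* under 0.05, and of the succinate list 3 did so at 40 weeks. Between KO+AAV and KO muscle no gene of these 7 lists was called by limma at either age, and 0 to 3 genes of a list at 10 weeks and 0 to 7 at 40 weeks had an unadjusted *P* under 0.05. The lists' medians ran from -0.18 to 0.07 at 10 weeks and from -0.27 to -0.04 at 40 weeks. With GFP, genes that rose included *Pdk4*, a kinase that inactivates pyruvate dehydrogenase (2.03, adjusted *P* = 0.00142), *Oxct1*, which passes CoA from succinyl-CoA to ketone bodies (0.79, adjusted *P* = 0.00269), *Mdh1* (0.57, adjusted *P* = 0.00417), and *Idh2* (0.88, adjusted *P* = 0.0111).

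Before the other tissues are described, 6 of their 32 libraries need a remark. KO heart replicate 2 held 17396 CPM of *Alb*, the liver's albumin, against 3.56 to 4.86 CPM in the other hearts. KO heart replicate 4 held 8848 CPM of the atrial gene *Nppa* and 1623 CPM of atrial *Myl7*, and KO+AAV heart replicate 1 held 908 and 526 CPM. KO fat replicate 2 held 18005 CPM of *Gpx5*, an epididymal gene, and 529 CPM of *Adipoq*, the lowest of the fat libraries. KO+AAV fat replicate 3 held 326 CPM of *Ucp1*, the brown fat uncoupling protein, and KO lung replicate 3 held 137 CPM of it. The heart gene *Myh6* was also found in lung, at 267 CPM on average in KO and 1651 CPM in KO+AAV lung.

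Outside muscle, the vector's mice were compared with KO mice in each tissue. None of the 10 genes was called by limma in lung, heart, liver, or fat, where 0.0237% of all genes were called in lung and 0% in the others; edgeR and DESeq2 also called 0 of the 10 in each. At an unadjusted *P* under 0.05 there were 2 genes in lung (11.9% of all genes), *Sdhb* (log2 difference 0.39) and *Sdhc*, and 0 in heart, liver, and fat. The shares of all genes in heart, liver, and fat at this cutoff are not given here, so the 0 is not read further. All 10 had higher means in KO+AAV lung, heart, and fat, with medians of 0.24, 0.18, and 0.31, and the median in liver was 0.04. Over all genes the medians were -0.00 in lung, -0.01 in heart, -0.03 in fat, and 0.00 in liver. Without KO heart replicates 2 and 4 the heart median was -0.13, and without KO fat replicate 2 and KO+AAV fat replicate 3 the fat median was -0.06. The KO+AAV heart library remarked on was kept in that heart median. With lung libraries left out in turn, the lung median ran from 0.18 to 0.35. The heart gene *Myh6* was at 699 to 2241 CPM in KO+AAV lung and 41.7 to 440.3 CPM in KO lung libraries. Leaving out single libraries does not remove that difference, and its part in the lung values was not tested.

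Levels per length in KO mice at 40 weeks ordered the tissues. With the union of exons *Sdha* had the highest mean level in every tissue, at 371 ± 76.9 RPKM in heart, 169 ± 39.3 in fat, 159 ± 5.66 in liver, and 72.3 ± 12.3 in lung (SD, n = 4), and 240.2 ± 38.7 in gastrocnemius (n = 5), which was sequenced elsewhere and is set beside them with no test. The means of *Ogdh* (219 ± 29.6 in gastrocnemius and 316 ± 102 in heart), of *Sdhb* (180.5 ± 39.5 and 284 ± 78.3), and of *Sdhd* (198 ± 40.2 and 309 ± 68.3) overlapped that of *Sdha* within their SDs in these muscles, as did those of *Cs* in heart (231 ± 79.8), *Ogdh* in lung (53.8 ± 6.53), and *Sdhd* in fat (117 ± 25.8), liver (139.5 ± 17.8), and lung (68.5 ± 9.72). Without the KO hearts and the KO fat library remarked on, *Sdha* was 423 ± 15.8 in heart (n = 2) and 188 ± 15.3 in fat (n = 3), clear of *Sdhd* (362 ± 20.3), *Sdhb* (343 ± 22.0), and *Cs* (289 ± 0.402) in heart and of *Sdhd* (129 ± 2.96) in fat, while *Ogdh* in heart (388 ± 36.6) still overlapped. With principal transcript lengths *Sdhb* came before *Sdha* in gastrocnemius (354 against 342) and heart (558 against 527). *Sucla2* had 159.7 ± 45.7 in heart, 42.7 ± 3.96 in liver, 41.1 ± 13.1 in fat, and 22.1 ± 6.28 in lung, and 163 ± 23.0 in gastrocnemius. Liver and fat did not differ beyond their spread for *Sucla2*, nor did heart and gastrocnemius with all hearts, but without the 2 KO hearts the heart mean was 195 ± 7.48 (n = 2), above that of gastrocnemius by more than either SD. *Suclg2* was ordered otherwise, with 50.7 ± 4.04 in liver, 45.3 ± 5.37 in heart, 16.5 ± 3.63 in fat, 16.3 ± 2.04 in gastrocnemius, and 12.7 ± 1.66 in lung. In liver its level was above that of *Sucla2* and number 5 in the order of the 10 genes, but with principal transcript lengths it was below *Sucla2* (69.6 against 76.4) and number 8, while in heart, fat, lung, and gastrocnemius it ranked last, next to *Dlst* in lung (15.1 ± 1.99).

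**Figure D5:**
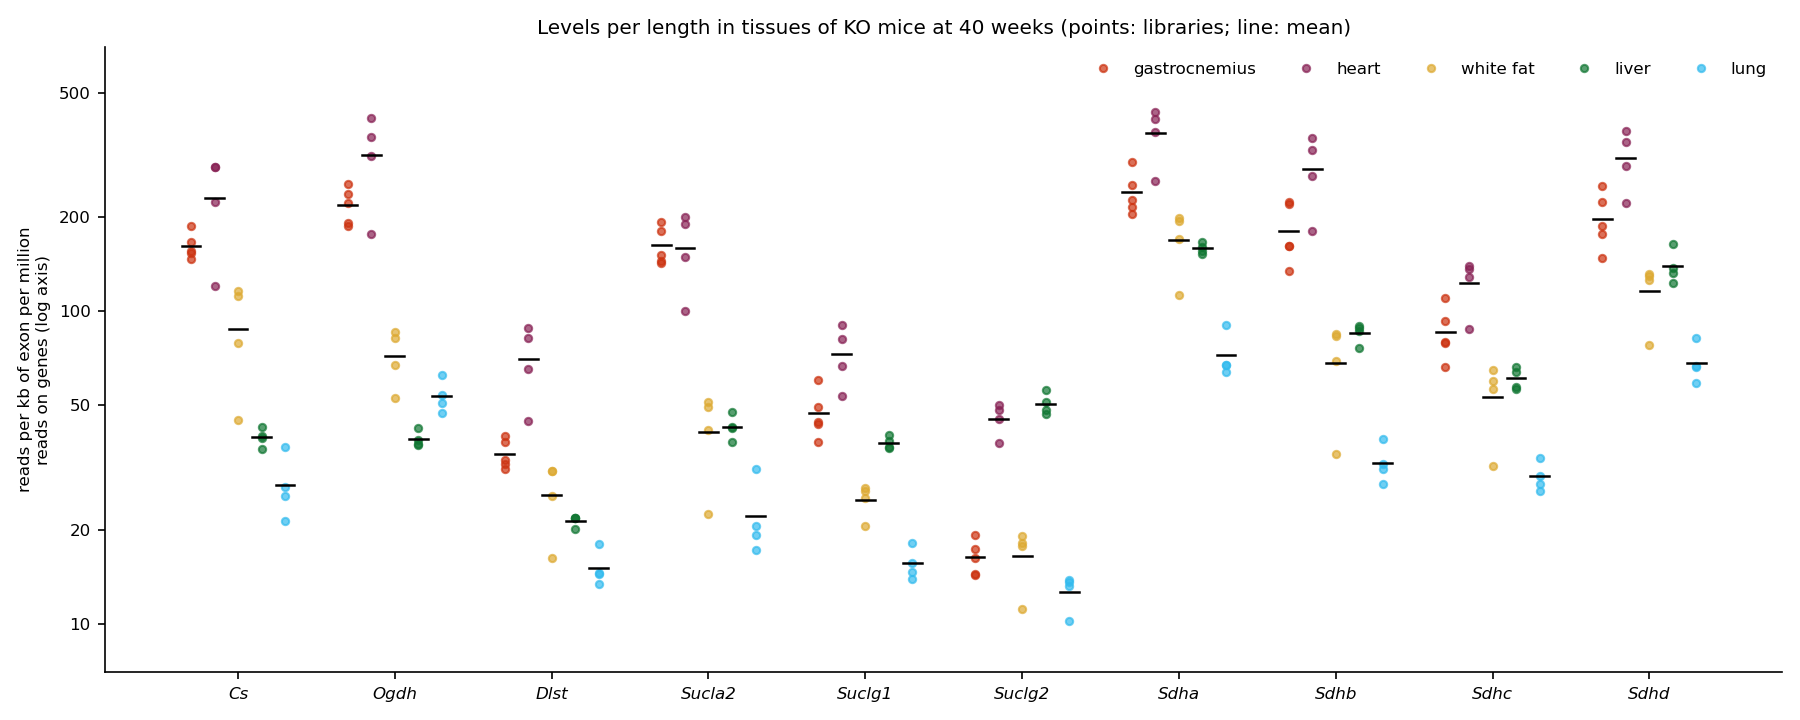
Levels of the 10 genes (RPKM, log axis) in each KO library of gastrocnemius, heart, liver, white fat, and lung at 40 weeks. *Sdha* has the highest mean in every tissue at these union exon lengths, and *Suclg2* lies between 37.9 and 56.1 in heart and liver libraries and between 10.2 and 19.1 in lung and fat libraries.

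The tissue differences were tested in a model of all 32 libraries with common size factors (TMM), which assume that most genes do not differ. The labels do not tie tissues to mice, so libraries of 1 mouse, if any, were treated as independent. Heart was higher than lung and than fat for all 10 genes (27.0% and 22.4% of all genes were called higher) and higher than liver for 9 (34.4%), with medians of 3.27, 2.21, and 1.36; in reads-per-million the same numbers were called, with medians of 2.27, 1.46, and 1.43. *Suclg2* was the exception, with a log2 difference between heart and liver of -0.23 (SE 0.17, adjusted *P* = 0.238) and -0.17 in reads-per-million. Fat was higher than lung for all 10 genes (25.7% of all genes; median 1.02), and for 9 in reads-per-million (median 0.77). Liver was higher than lung for 10 genes (31.0% of all genes) with TMM, but in reads-per-million for 8, and *Ogdh* turned from 0.61 to -0.46 (adjusted *P* = 0.0281). Liver was higher than fat for 8 genes (26.8% of all genes) with TMM, but in reads-per-million 2 were higher (*Suclg1* and *Suclg2*) and 2 lower (*Cs* and *Ogdh*), and *Dlst* and *Sdha* changed sign. Without KO heart replicate 2 and KO fat replicate 2, the TMM counts were the same but for 7 genes between liver and fat. The other libraries remarked on were kept in that fit. The choice of scale moved the median of all genes between liver and fat from -0.30 to -1.08, between liver and lung from -0.25 to -1.27, between heart and fat from -0.20 to -0.93, between heart and lung from -0.17 to -1.14, and between fat and lung from 0.05 to -0.19. *Suclg2* was higher in liver than in fat under both scales, by 2.46 with TMM (SE 0.17, adjusted *P* = 2.34e-12) and by 1.64 in reads-per-million (adjusted *P* = 6.35e-12).

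The ratios of ligase subunits, which no scaling changes, set gastrocnemius and liver apart from the other tissues for *Sucla2*/*Suclg2*, while the ranges of heart, fat, and lung libraries overlapped. *Sucla2*/*Suclg2* per length was 9.99 ± 0.898 in KO gastrocnemius at 40 weeks (n = 5), 3.55 ± 0.990 in heart, 2.44 ± 0.326 in fat, 1.73 ± 0.371 in lung, and 0.851 ± 0.139 in liver (n = 4 each). The lowest value in gastrocnemius, 8.68, was above every heart library, and the highest in liver, 1.02, was below the lowest in lung, 1.45. Heart ran from 2.08 to 4.20, and its overlap rested on replicate 2 (2.08), 1 of the 2 KO hearts remarked on. The other 3 hearts (3.92 to 4.20) lay above every fat (2.02 to 2.72) and lung (1.45 to 2.27) library, and without replicates 2 and 4 the heart mean was 4.10 (n = 2). The overlap of fat and lung also rested on libraries remarked on, KO fat replicate 2 (2.02) and KO lung replicate 3 (2.27). The next lowest fat library was at 2.35 and the next highest lung library at 1.69. *Sucla2*/*Suclg1* varied less, with overlap among fat, lung, and liver libraries and between heart replicate 2 (1.86) and fat, from 3.47 ± 0.234 in gastrocnemius to 2.16 ± 0.248 in heart, 1.62 ± 0.400 in fat, 1.40 ± 0.231 in lung, and 1.13 ± 0.124 in liver. These ratios are set side by side with no test, and the length of exon used scales them: with principal transcripts the liver mean of *Sucla2*/*Suclg2* was 1.11. Other ratios per length also differed by tissue. *Ogdh*/*Dlst* was 5.89 to 6.66 in KO gastrocnemius, 3.96 to 5.02 in heart, 3.48 to 3.71 in lung, 2.61 to 3.25 in fat, and 1.71 to 2.10 in liver libraries, so that no pair of the 5 tissues overlapped. *Sdhd*/*Sdhb*, an anchor over the iron-sulfur subunit of the same complex, was 0.916 to 1.32 in gastrocnemius, 1.05 to 1.23 in heart, 1.43 to 1.87 in liver, 1.56 to 2.23 in fat, and 2.04 to 2.15 in lung libraries.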

How the data were processed

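The authors aligned poly(A) RNA-Seq reads to GRCm38 (mm10) with HISAT2, counted them per gene with HTSeq, and deposited each signal value as a read count divided by the library's DESeq2 size factor. The annotation release and the strand setting are not given in the sources used here. Every deposited value was a whole multiple of 1 read (within 0.01 of a whole number), so reads and depth were recovered. Gastrocnemius, each other tissue, and the GFP experiment were normalized separately, and 40 gastrocnemius libraries were sequenced at 2 sites (ICBR and Novogene).

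Genes with a mean normalized count over 5 were tested with limma 3.58.1 (lmFit and eBayes with a trend, R 4.3.3) on log2(normalized count + 1), with *P* values adjusted by Benjamini-Hochberg over all genes. A model of 34 gastrocnemius libraries held 6 groups and the site, while each tissue and the GFP experiment were fitted alone. Tissue pairs were compared on recovered reads with TMM factors from edgeR 4.0.16. Levels per length used the union of exons in GENCODE vM21. Alternatives were DESeq2 1.42.0, edgeR's quasi-likelihood test, another pseudocount (0.5), filters (none, or a mean over 50), library quality weights, 2-group fits, site-wise fits, a replicate block, reads-per-million, and leaving out libraries. The reads-per-million scale and the ratios were added after the data were seen. The 55401 genes carried symbols in 99.5% of cases. Of 135 pairs of libraries within a group, none agreed within sampling noise (lowest chi-square per gene 3.33). Labels do not say how replicates were bred or processed, so *P* values measure the spread between these samples.

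The 10 genes and the lists beside them were chosen with earlier results of these data known. Named genes were the 10, *Arntl*, of each list the 2 called genes of smallest *P* in each direction, the most abundant marker, and the 5 genes best correlated with the 10. Some genes that the rule names are given only within the counts of their list, and 2 are not reported here. Genes that mark 1 library (*Gpx5*, *Nppa*, *Myl7*, *Ucp1*) and *Suclg2*'s pseudogene were named after their values were seen. The limma step was tested on simulated data.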

Additional observations from a re-analysis of the deposited data

Results flagged for a closer look

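Of 140 sets of values, 1 per gene and group with the 2 groups of 3 libraries of the GFP experiment not tested, 11 held a library far from the others by Dixon's test at the 95% level, where chance gives about 5 in 100. In gastrocnemius at 10 weeks, *Sucla2* in KO replicate 3 had a normalized count of 14733, against 13084 to 13450.4 in the other KO libraries; it lay on the side away from WT. At 40 weeks KO+AAV replicate 1 stood above its group for *Suclg1* (3977, others 2688 to 2983), *Suclg2* (1384, others 981 to 1095), and *Sdha* (17472, others 12149 to 13451). KO replicate 5 did so for *Suclg2* (1469, others 1169 to 1244) and *Sdha* (20522, others 15414 to 15824).

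In the other tissues, KO lung replicate 3, the lung library with 137 CPM of *Ucp1*, was highest for *Dlst* (7397, others 5873 to 6037) and *Sdha* (16096, others 11988 to 12157). KO lung replicate 1 was lowest for *Suclg2* (2176, others 2670.0 to 2747). In liver, *Suclg1* was low in KO replicate 2 (6622, others 7439 to 7603) and high in KO+AAV replicate 2 (9025, others 7507 to 7674). Their causes were not tested.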

How the results depend on the processing

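Of 395 counts of called genes under other settings, 371 stayed within 1.5 times the reported count. A count of 0 that stayed at 0 is among these, and many comparisons had 0 called. The total therefore says little about the comparisons with called genes, which are given below. Single genes were followed only where limma gave a *P* under 0.01 or an adjusted *P* under 0.05. Of 392 such log2 differences in gastrocnemius, 334 stayed on the same side of the threshold, and 0 reversed. Weaker differences were left out, and some changed sign in reads-per-million, such as *Cs*, *Dlst*, and *Sdha* between ages in KO muscle and *Sucla2* with GFP. Tissue pairs are not among these 392. There *Ogdh* between liver and lung turned from 0.61 to -0.46 in reads-per-million. *Sucla2* between KO and WT stayed called under all 13 settings at 10 weeks (log2 difference 0.80 to 0.87) and all 21 at 40 weeks (0.65 to 0.78). For KO versus WT at 10 weeks, 3 genes were called as reported, 1 with no filter and in either site's libraries alone, 5 with DESeq2, 10 with library quality weights, and 6 when the 2 groups were fitted alone. At 40 weeks 9 were called, and 6 to 9 when 1 library was left out (6 without WT replicate 1, 3, or 4 or KO replicate 5); in reads-per-million 6 were called, without *Suclg2* (0.0688), *Sdha* (0.0608), and *Sdhb* (adjusted *P* = 0.0779). For KO+AAV versus KO at 10 weeks, 1 gene was called in place of 0 with a mean over 50, with DESeq2, and with quality weights. For KO+AAV versus WT, 2 were called in place of 1 with quality weights at both ages, 0 in either site's libraries alone at 10 weeks, and 1 to 2 with 1 library left out at 40 weeks (2 without KO+AAV replicate 2). Between ages, 1 gene in place of 0 was called in KO muscle in reads-per-million and with no site term, and 0 to 1 with 1 library left out (1 without KO replicate 5 of 40 weeks). In KO+AAV muscle it was 2 with quality weights, 1 with no site term, and 0 to 1 with 1 library left out (1 without replicate 1 of 40 weeks). With GFP it was 0 to 1 with 1 library left out (0 without KO+GFP replicate 3). Between liver and fat, 4 genes were called in reads-per-million in place of 8. The causes were not tested, other than that smaller fits hold fewer libraries.

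The labels do not say whether replicate numbers pair the libraries. In none of the comparisons was every correlation of same-numbered deviations over 0.1, so pairing was not assumed, though it is not excluded. The correlations ran from 0.07 to 0.25 for KO and WT at 10 weeks (4 of 5 over 0.1) and from -0.24 to 0.20 at 40 weeks (2 of 5). They reached 0.57 for KO+AAV and KO at 40 weeks (3 of 5), 0.37 for KO+AAV and WT at 10 weeks (4 of 6), and 0.70 in fat (3 of 4). With a replicate block 6 genes were called between KO and WT at 10 weeks and 4 at 40 weeks (*Ogdh* at 10 weeks was not, adjusted *P* = 0.0624), and the counts of the other comparisons did not change. Of the genes called at 40 weeks, *Ogdh*, *Dlst*, and *Sucla2* stayed called under all 21 settings. *Cs*, *Sdhc*, and *Sdhd* each lost the call under 1 setting (highest adjusted *P* = 0.0558, 0.0542, and 0.0545). The lowest count of any of the 10 genes was 398 reads, for *Suclg2* in the GFP experiment, and counting error was not separated from the spread between mice.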
